A study of Homo sapiens with 14 samples.

Results

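The genes described here are the cell's sensors of double-stranded RNA and the adaptors, kinase and transcription factors through which they signal. They were chosen by name and not by their values, but with earlier results of these data known. The members are RIGI, IFIH1, DHX58, TLR3, EIF2AK2, MAVS, TICAM1, TBK1, IRF3 and IRF7. These are 10 of the 19775 genes that the array annotation names, and 21 of the 54613 probe sets tested carried 1 of these symbols. RIGI, IFIH1, TLR3 and EIF2AK2 had 3 probe sets each, MAVS had 4, and the other members had 1 each.

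The data are 14 Affymetrix HG-U133 Plus 2.0 arrays of LY2, an endocrine-resistant breast cancer line derived from MCF-7 cells. LY2 cells were grown with 10 nM 4-hydroxytamoxifen, the active form of tamoxifen, and kept without it for 72 h before use. They were transfected with the transfection agent siPORT Amine and 40 nM of an siRNA against SRC-1, a coactivator of nuclear receptors encoded by NCOA1, or with 40 nM of a scrambled control siRNA. At 24 h they received 100 nM 4-hydroxytamoxifen or its ethanol vehicle for 2 h, and RNA was then extracted. The groups were SRC1 siRNA with tamoxifen (2 arrays, replicate numbers 1 and 3), control siRNA with tamoxifen (4 arrays), SRC1 siRNA untreated (4 arrays) and control siRNA untreated (4 arrays). The labels call the replicates biological and say no more of them, so p-values measure only the spread between these arrays. Cells of all 4 groups therefore received a short RNA duplex and the transfection agent, and arrays of cells without a duplex were not analysed here. Each siRNA was a single product whose sequence and chemistry the labels do not give, so loss of SRC-1 and an effect of the duplex itself cannot be told apart.

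RIG-I (encoded by RIGI), MDA5 (IFIH1) and LGP2 (DHX58) are related RNA helicases that bind double-stranded RNA in the cytosol. RIG-I and MDA5 signal through MAVS on mitochondria, whereas LGP2 lacks the signalling domain and modulates the other two. TLR3 binds double-stranded RNA in endosomes and signals through TICAM1, also called TRIF. Both routes meet at the kinase TBK1, which phosphorylates IRF3 and IRF7, the transcription factors that switch on interferon genes. EIF2AK2 encodes PKR, a kinase that double-stranded RNA activates and that halts translation. Several of these genes are themselves induced by interferon, and activation of the proteins, by binding, phosphorylation or aggregation, is not measured by an array of transcripts.

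Promoter windows from RefSeq (GRCh38.p14), 250 bases before to 50 after the start site, were found for 7 of the 10 members, and not for DHX58, IRF3 and IRF7. The core of the interferon-stimulated response element (GAAANNGAAA, searched on both strands) was present in 3 of the 7, against 3.57% of all 35116 windows. The windows with a match are shown because they mark which members carry these letters near the start site; capitals mark the core, which reads TTTC where it lies on the opposite strand.
IFIH1, chr2:162318635-162318934, minus strand: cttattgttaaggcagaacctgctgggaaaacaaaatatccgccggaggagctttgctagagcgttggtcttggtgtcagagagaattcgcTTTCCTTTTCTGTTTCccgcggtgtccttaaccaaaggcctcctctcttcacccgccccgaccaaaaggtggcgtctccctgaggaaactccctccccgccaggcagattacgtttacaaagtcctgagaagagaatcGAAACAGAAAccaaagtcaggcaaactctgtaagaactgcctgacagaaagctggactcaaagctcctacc
TLR3, chr4:186068906-186069205, plus strand: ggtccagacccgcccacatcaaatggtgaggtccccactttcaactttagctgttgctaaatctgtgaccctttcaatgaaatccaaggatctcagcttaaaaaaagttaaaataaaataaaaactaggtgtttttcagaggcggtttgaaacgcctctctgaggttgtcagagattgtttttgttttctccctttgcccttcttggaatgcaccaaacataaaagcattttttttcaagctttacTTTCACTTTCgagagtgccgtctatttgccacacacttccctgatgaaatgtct
EIF2AK2, chr2:37156931-37157230, minus strand: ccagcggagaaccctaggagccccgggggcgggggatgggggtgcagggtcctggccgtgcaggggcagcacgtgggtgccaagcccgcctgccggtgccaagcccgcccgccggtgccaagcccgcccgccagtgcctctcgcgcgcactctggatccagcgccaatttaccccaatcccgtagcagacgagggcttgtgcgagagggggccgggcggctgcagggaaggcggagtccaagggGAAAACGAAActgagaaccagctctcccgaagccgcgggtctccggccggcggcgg
In IFIH1 a match began at -21 from the start site, and 2 overlapping matches on the opposite strand began at -159 and -153. The TLR3 match began at -4 and the EIF2AK2 match at -6. The gamma-activated site (TTCNNNGAA) had 2 matches in TLR3, at -178 and -50, and was in 7.66% of all windows. The windows of RIGI, MAVS, TICAM1 and TBK1 held no exact match to either motif. Near matches were not searched, and the RIGI window holds gaaacgaaa, whose GAAA repeats lie closer together than in the letters searched. The estrogen response element (GGTCANNNTGACC), present in 0.057% of all windows, was in none of the 7.

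All 4 probe sets of NCOA1 were lower with SRC1 siRNA than with control siRNA, by 1.11 to 1.50 on the log2 scale in tamoxifen-treated cells and by 1.10 to 1.40 in untreated cells (limma, largest adjusted p 0.00589 and 0.00184). Of 8 luminal epithelial markers none lay below the median signal of the array (3.47) in any group, and their mean was 12.3 to 12.4 on every array. Of 8 leukocyte markers measured, 6 to 8 lay below that median, with list means of 2.39 to 2.62 with SRC1 siRNA and 2.28 to 2.41 with control siRNA. By group mean, CD3E was at 1.37 to 1.54 and LYZ was the highest, at 3.26 to 3.88. Of 6 fibroblast markers 5 lay below the median, and of 4 endothelial markers 3 or 4 did. The fibroblast exception was COL1A1, at 10.8 to 11.0 on its brightest probe set. Its other probe sets had mean signals of 2.57 to 6.92 over all arrays. The endothelial list means were 2.43 to 2.55 with SRC1 siRNA against 2.56 to 2.67 with control siRNA in tamoxifen-treated cells, and 2.71 to 2.92 against 2.60 to 2.68 in untreated cells. Among these dim markers, CDH5 fell by 0.36 (limma, adjusted p = 0.00273, and 0.0487 with the block) and ITGAM rose by 0.86 (0.0253, and 0.115 with the block) in tamoxifen-treated cells, and PECAM1 rose by 0.73 (0.0255, and 0.0862 with the block) in untreated cells. Of the luminal markers, each by its brightest probe set, CDH1 fell by 0.27 (0.00864) and KRT8 rose by 0.31 (0.0351) in untreated cells, calls that the block ended (0.0588 and 0.122). The dimmer CDH1 probe set 201130_s_at fell by 0.79 in tamoxifen-treated and by 0.87 in untreated cells, with the block too (adjusted p = 0.0482 and 0.00983). The part of these marker differences in the results was not tested. Arrays that share a replicate number varied less from number to number than independent arrays would: an F statistic for the number fell below the 5% point of its null distribution in 77.8% of all probe sets and in 14 of the 21 member probe sets. The number means of RIGI 218943_s_at, for example, were 11.38, 11.33, 11.46 and 11.03 for numbers 1 to 4, although its single arrays ran from 9.90 to 13.20. Whether an upstream step brought the number means together is not given in the sources used here. If one did, the level on 1 array depends on the other arrays of its number and the p-values of a fit without the number are too small. Differences between arrays of the same number, and a fit that adds the replicate number as a block, are therefore given beside the main results.

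SRC1 siRNA was first set against control siRNA in untreated cells, the comparison with 4 arrays a side. The cytosolic sensors LGP2 and MDA5 had higher transcript levels with SRC1 siRNA, for MDA5 on part of its probe sets with the block. TLR3, IRF7 and TBK1 were also higher, but did not pass with the block. RIGI did not pass in either fit, and MAVS was lower on part of its probe sets. In the limma fit over all probe sets, 9 of the 21 member probe sets passed (adjusted p under 0.05), against 10.4% of all those tested. Of these, 7 rose and 2 fell, against 4.99% and 5.36%. The 9 probe sets belong to 6 genes, DHX58, IFIH1, TLR3, TBK1, IRF7 and MAVS. With the replicate number as a block 4 remained called, 1 of DHX58, 2 of IFIH1 and 1 of MAVS, against 3.94% of all probe sets. The count was 4 without array 1 of either siRNA, and 5 without array 2 of either or array 4 of the control. On 12 member probe sets every SRC1-siRNA array was above every control array, against 7.92% of all probe sets, and on 2 every one was below, against 8.31%. The median change of the 21 probe sets was 0.24 on the log2 scale, against -0.00 over all probe sets.

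DHX58 (219364_at), whose product LGP2 modulates the other helicases, had log2 signals of 6.13, 5.59, 5.40 and 5.77 in SRC1-siRNA cells, against 3.90, 4.21, 4.50 and 3.88 in control-siRNA cells. The groups did not overlap, and the gap between them was wider than the range of either. The difference was 1.60 ± 0.20 (SE), a 3.03-fold rise (limma, adjusted p = 0.000693, and 0.00767 with the block). It stayed past the threshold in all 25 other fits that were run, which included the removal of each array in turn.

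IFIH1, which encodes the MDA5 sensor, rose on all 3 of its probe sets. On 1555464_at the signals were 9.84, 8.87, 8.84 and 9.69 in SRC1-siRNA cells, against 6.44, 7.39, 7.62 and 6.82 in control-siRNA cells. Every SRC1-siRNA array was above every control array, with the highest 2 at numbers 1 and 4. The difference of 2.24 ± 0.36 (SE), or 4.73-fold, passed in limma with an adjusted p of 0.00229, and of 0.0137 with the block, and in all 25 other fits. On 216020_at the difference was 1.65 ± 0.32 (adjusted p = 0.00627, and 0.0287 with the block).

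The brightest IFIH1 probe set, 219209_at, moved less. It read 12.82, 12.44, 12.59 and 13.54 in SRC1-siRNA cells, against 11.87, 12.26, 12.21 and 11.42 in control-siRNA cells, again without overlap. Its rise of 0.91 ± 0.27 passed in limma (adjusted p = 0.0465) but not with the block (0.123), and removal of any 1 of 11 arrays ended the call, with adjusted p up to 0.127. Rises on the 3 IFIH1 probe sets thus ran from 0.91 to 2.24, and levels are not compared between them.

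RIGI, which encodes the sensor of short 5′-triphosphate duplexes, did not pass. On 218943_s_at it read 12.07, 11.63, 11.42 and 13.20 in SRC1-siRNA cells, against 10.72, 11.18, 11.41 and 9.99 in control-siRNA cells. The groups did not overlap, but by only 0.01 between SRC1-siRNA array 3 and control array 3, and number 4 held both the highest SRC1-siRNA array and the lowest control array. The difference was 1.26 ± 0.40 (limma, adjusted p = 0.0651, and 0.154 with the block). The second probe set, 222793_at, lay at 11.43 to 13.04 in SRC1-siRNA cells and 10.11 to 11.20 in control-siRNA cells, also without overlap. It differed by 1.19 ± 0.37 (limma, adjusted p = 0.0599), and the third, 242961_x_at, by -0.02 (95% interval -0.20 to 0.16). Without all arrays of number 4, the RIGI differences were 0.60 and 0.61, with adjusted p of 0.102 and 0.0609.

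TLR3, the endosomal sensor, passed on 1 of 3 probe sets. On 206271_at the signals were 8.75, 6.98, 7.15 and 7.33 in SRC1-siRNA cells, against 4.93, 6.24, 6.54 and 5.58 in control-siRNA cells. The groups did not overlap, and number 1 held the highest SRC1-siRNA array beside the lowest control array. The rise was 1.73 ± 0.51, or 3.32-fold (limma, adjusted p = 0.0448, and 0.116 with the block), and removal of any 1 of 8 arrays ended the call, with adjusted p up to 0.124. The brightest TLR3 probe set, 239587_at, differed by 1.96 ± 0.63 (adjusted p = 0.0657). The dim 242667_at, with a mean signal of 3.21, differed by 0.41 (adjusted p = 0.139).

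EIF2AK2, which encodes PKR, was among the brightest members, and its 3 probe sets differed by 0.23, 0.16 and 0.24 (limma, adjusted p 0.185 to 0.325). On 204211_x_at it read 12.95, 12.85, 12.93 and 13.25 in SRC1-siRNA cells, against 12.79, 12.85, 12.78 and 12.64 in control-siRNA cells, with overlap between the groups at number 2. The 95% interval of this difference was 0.01 to 0.46, so rises beyond the upper bound fall outside it.

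Of the adaptors, MAVS carries the signal of RIG-I and MDA5, and TICAM1 that of TLR3. MAVS 226495_at read 9.07, 9.43, 9.10 and 9.36 in SRC1-siRNA cells, against 9.77, 9.62, 9.68 and 9.80 in control-siRNA cells, and the groups did not overlap. It fell by 0.48 on the log2 scale (SE 0.10; limma, adjusted p = 0.00713, and 0.0400 with the block). MAVS 229741_at also fell by 0.48, with an adjusted p of 0.0352, and of 0.114 with the block. Removal of any 1 of 5 arrays ended that second call, with adjusted p up to 0.0885. The brightest MAVS probe set, 220305_at, differed by -0.16 (adjusted p = 0.178) and the dim 231829_at by -0.24 (adjusted p = 0.165), so the probe sets of MAVS did not all pass. TICAM1 differed by 0.16 (95% interval -0.04 to 0.37, adjusted p = 0.310).

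TBK1, the kinase below both adaptors, read 11.29, 11.24, 11.13 and 11.17 in SRC1-siRNA cells, against 10.98, 10.99, 11.02 and 11.01 in control-siRNA cells. The groups did not overlap and the 4 control arrays lay close together. The rise of 0.21 ± 0.06, or 1.16-fold, passed in limma (adjusted p = 0.0359) and not with the block (0.146). Removal of any 1 of 6 arrays ended the call, with adjusted p up to 0.103.

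IRF7, an interferon-induced transcription factor that amplifies interferon genes, read 9.85, 9.58, 9.43 and 10.20 in SRC1-siRNA cells, against 8.78, 9.29, 9.43 and 8.03 in control-siRNA cells. The lowest SRC1-siRNA array and the highest control array, both of number 3, were almost level. The rise was 0.88 ± 0.25, or 1.84-fold (limma, adjusted p = 0.0417, and 0.109 with the block), and removal of any 1 of 7 arrays ended the call, with adjusted p up to 0.100. IRF3, the constitutive partner of IRF7, differed by 0.11 (95% interval -0.22 to 0.44, adjusted p = 0.713).

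**Figure D1:**
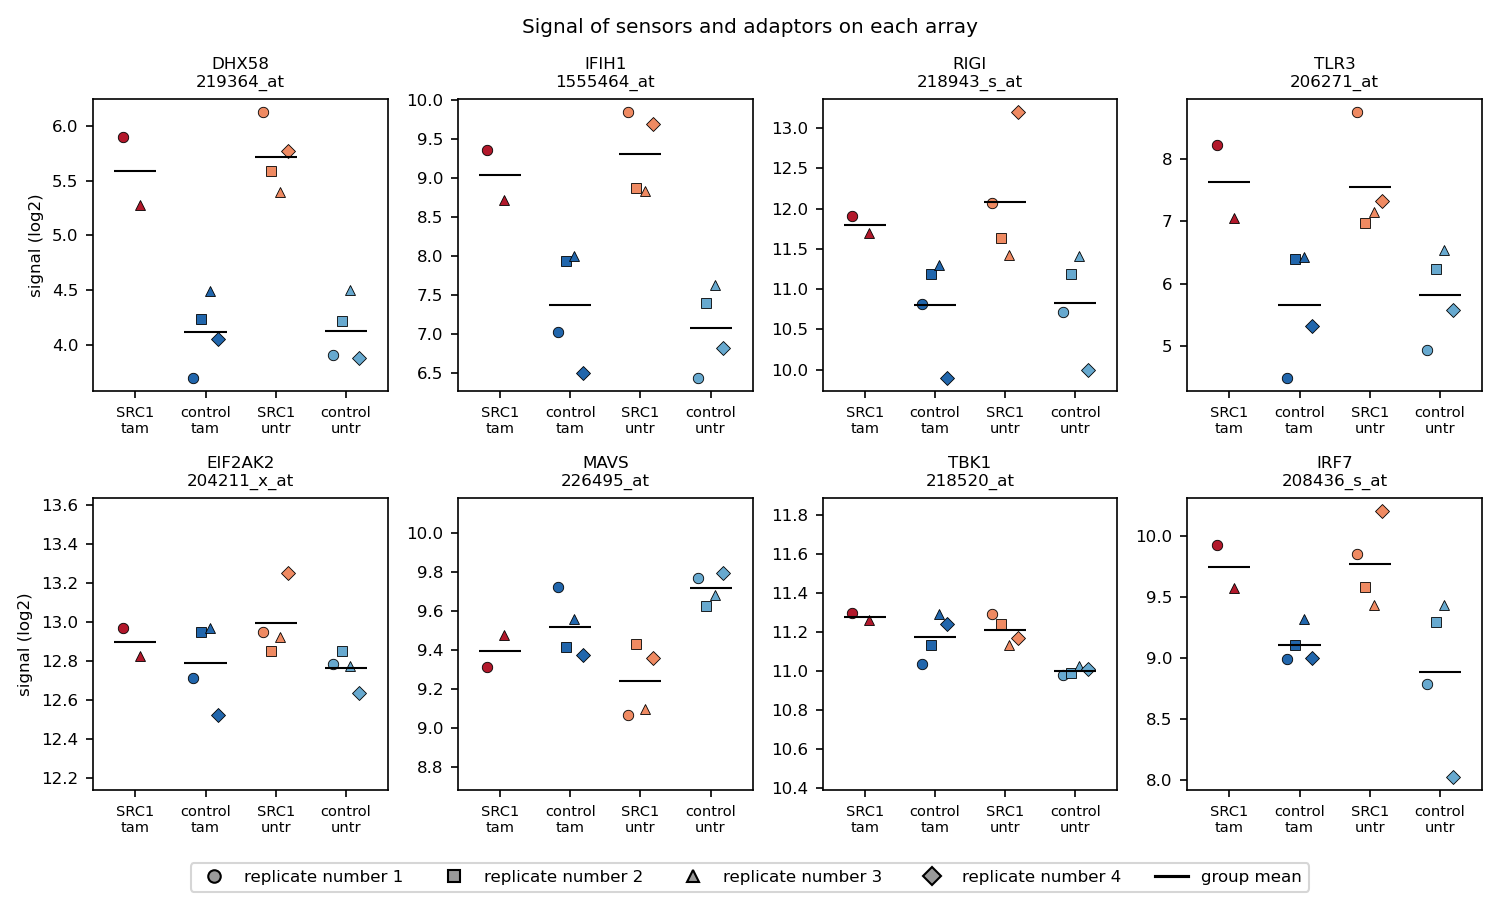
Log2 signal of 8 probe sets on each of the 14 arrays, by group on the x axis (tam, tamoxifen; untr, untreated), with a marker for each replicate number and a bar for the group mean; each panel has its own y axis. DHX58 219364_at, IFIH1 1555464_at, TLR3 206271_at, RIGI 218943_s_at and IRF7 208436_s_at were higher on every SRC1-siRNA array than on every control array. For RIGI and IRF7 the margin was narrow, and in untreated cells they had their widest gap at number 4.

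Differences between untreated arrays of the same number do not depend on the number means. Of the 21 probe sets 13 were higher with SRC1 siRNA at all 4 numbers and 2 were lower at all 4. The shares of all probe sets that were higher or lower at all 4 numbers were not counted, so these counts are a description. DHX58 differed by 2.22, 1.38, 0.90 and 1.89 at numbers 1 to 4, and IFIH1 1555464_at by 3.41, 1.48, 1.21 and 2.87. RIGI 218943_s_at differed by 1.35, 0.45, 0.01 and 3.21, and IRF7 by 1.07, 0.29, 0.00 and 2.17, so both were nearly level at number 3. In 6 of the 7 probe sets that rose, both number 1 and number 4 had a larger difference than numbers 2 and 3. The exception was TBK1. This order was found in 12 of all 21 member probe sets, so it was not limited to those called. Its share over all probe sets was not counted. NCOA1, by its brightest probe set 209106_at, differed by -0.82, -1.56, -1.36 and -0.64 at numbers 1 to 4. All 4 NCOA1 probe sets fell less at numbers 1 and 4 than at numbers 2 and 3. How this relates to the rises was not tested.

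Interferon beta and its targets are the usual output of these routes, and 4 of their genes are set beside the members. IFNB1, encoding interferon beta, differed by 6.45, 2.67, 1.76 and 5.04 at numbers 1 to 4, with the same 2 numbers high. CCL5, a chemokine, differed by 6.45, 4.15, 3.86 and 4.66, and MX1, an antiviral GTPase, by 1.83, 1.05, 1.05 and 1.52. IFIT1, an antiviral protein that binds RNA ends, differed by 0.50, 0.13, 0.04 and 5.77, almost wholly at number 4, as RIGI and IRF7 were largest there. These orders come from 4 numbers and are a description. Without the arrays of number 4, IFNB1 was still 3.63 higher (limma, adjusted p = 0.0227), DHX58 1.50 (adjusted p = 0.00604) and IFIH1 1555464_at 2.03 (adjusted p = 0.00973), whereas IFIT1 was 0.22 higher and IRF7 0.45 (adjusted p = 0.151).

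**Figure D2:**
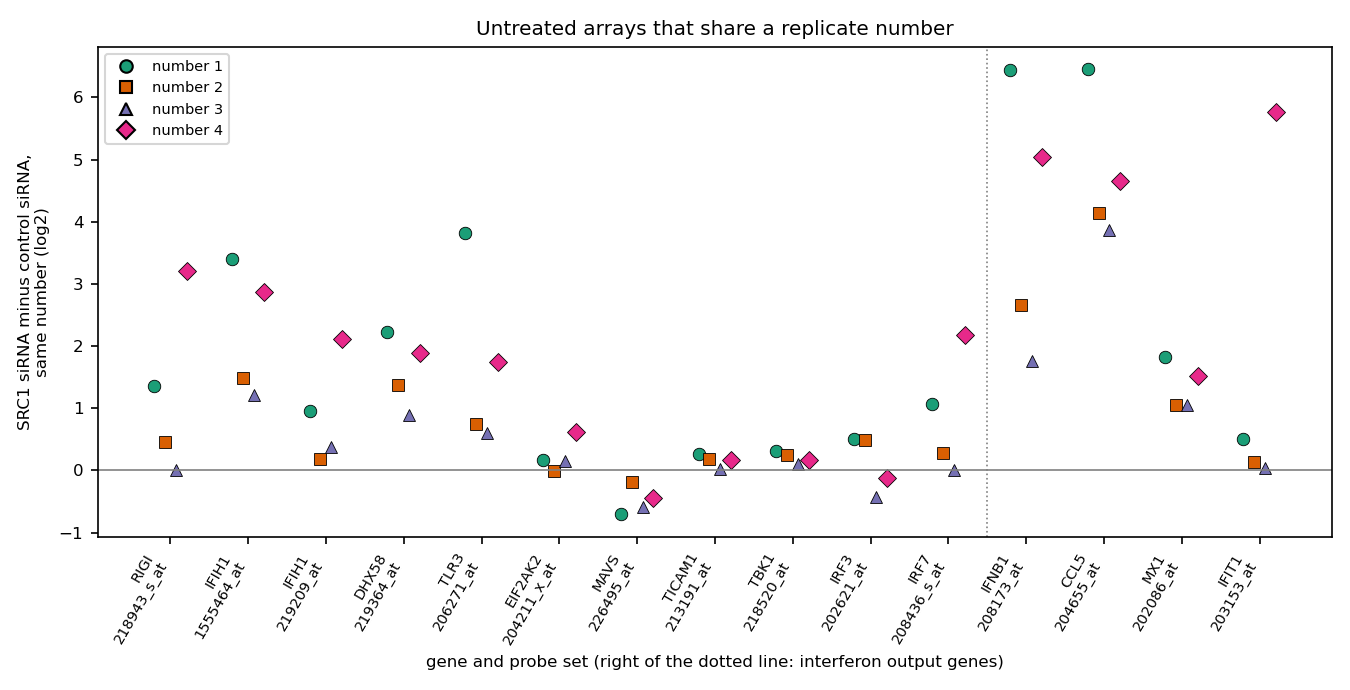
Difference in log2 signal between the SRC1-siRNA and the control-siRNA array that share a replicate number, in untreated cells, for 11 member probe sets and, right of the dotted line, 4 interferon output genes. The differences of IFIH1, DHX58 and TLR3 were largest at number 1 or 4, as was that of IFNB1, while RIGI, IRF7 and IFIT1 were highest at number 4.

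In tamoxifen-treated cells the same contrast had 2 SRC1-siRNA arrays against 4 control-siRNA arrays. DHX58 and IFIH1 were again higher with SRC1 siRNA and 2 probe sets of MAVS were lower. In the limma fit 6 member probe sets of 4 genes passed, against 13.5% of all probe sets; 4 rose and 2 fell, against 5.76% and 7.7%. The 1 call that remained with the block, against 2.24%, was DHX58. Without SRC1-siRNA array 1 the count was 0 and without array 3 it was 2, and without control array 1 or 4 it was 2 or 3. The groups did not overlap on 10 member probe sets that were higher and 2 that were lower, against 14.9% and 21.1% of all probe sets. The median change over the members was 0.39, against -0.02 over all probe sets.

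DHX58 read 5.90 and 5.27 in SRC1-siRNA cells, against 3.70, 4.23, 4.49 and 4.05 in control-siRNA cells, with no overlap. It rose by 1.47 ± 0.25, or 2.77-fold (limma, adjusted p = 0.00319, and 0.0362 with the block). Without SRC1-siRNA tamoxifen replicate 1 the rise was 1.16 and the adjusted p 0.0606. IFIH1 1555464_at read 9.36 and 8.71 in SRC1-siRNA cells, against 7.03, 7.93, 8.00 and 6.50 in control-siRNA cells, also with no overlap. It rose by 1.67 ± 0.45 (adjusted p = 0.0267, and 0.116 with the block), and 216020_at rose by 1.37 ± 0.39 (adjusted p = 0.0367). Removal of any 1 of 3 arrays ended the first of these IFIH1 calls and of any 1 of 4 the second, with adjusted p up to 0.212 and 0.287.

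The brightest IFIH1 probe set differed by 0.60 (adjusted p = 0.247) and the 2 bright RIGI probe sets by 1.0 and 0.93 (adjusted p = 0.195 for both). TLR3 206271_at read 8.22 and 7.06 in SRC1-siRNA cells, against 4.50, 6.40, 6.44 and 5.32 in control-siRNA cells. The groups were apart, by an average of 1.97 ± 0.62, and the adjusted p was 0.0507. The dim TLR3 242667_at rose by 0.65 (adjusted p = 0.0480), a call that removal of any 1 of 11 arrays ended, with adjusted p up to 0.238.

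MAVS 229741_at read 7.35 and 7.50 in SRC1-siRNA cells, against 8.49, 8.03, 7.99 and 8.11 in control-siRNA cells, and fell by 0.73 on the log2 scale (SE 0.16; adjusted p = 0.0120, and 0.0815 with the block). Without SRC1-siRNA tamoxifen replicate 1 its adjusted p was 0.113. The dim MAVS 231829_at fell by 0.41 (adjusted p = 0.0458), and removal of any 1 of 10 arrays ended that call, with adjusted p up to 0.325. MAVS 226495_at, which fell in untreated cells, differed by -0.12 here (adjusted p = 0.522). IRF7 differed by 0.64 (adjusted p = 0.189), IRF3 by 0.39 (0.183), TICAM1 by 0.29 (0.116) and TBK1 by 0.10 (0.355), none of which passed.

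**Figure D3:**
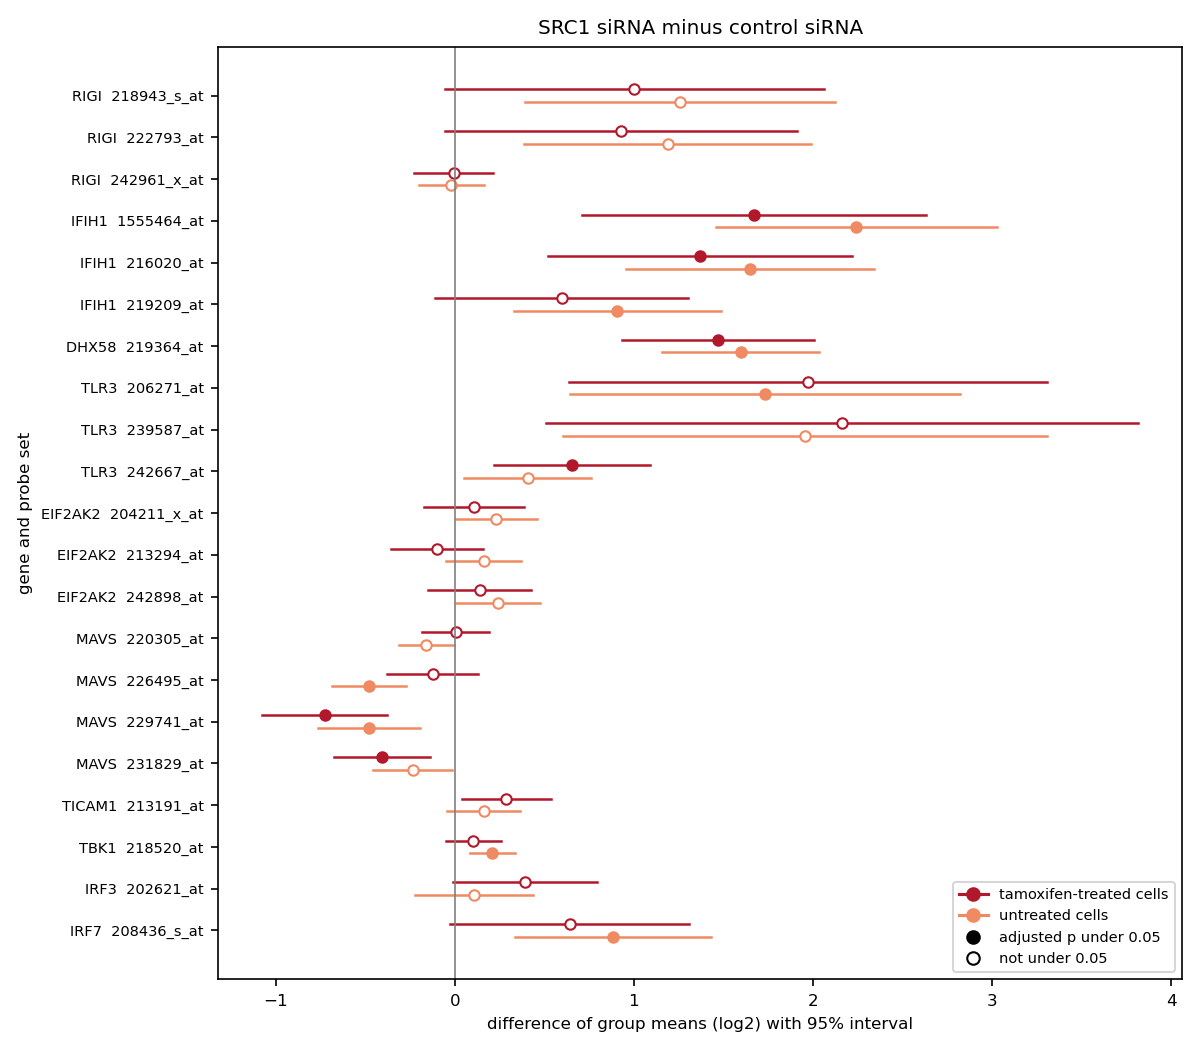
Difference between SRC1 siRNA and control siRNA in log2 signal for the 21 member probe sets, with the 95% interval of the limma fit without the block, in tamoxifen-treated and in untreated cells. Filled points had an adjusted p under 0.05. IFIH1 1555464_at, IFIH1 216020_at, DHX58 and, as a fall, MAVS 229741_at were filled in both. In untreated cells alone, TLR3 206271_at (1.73), IFIH1 219209_at, MAVS 226495_at, TBK1 and IRF7 were filled. In tamoxifen-treated cells alone, TLR3 242667_at and MAVS 231829_at were.

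Whether tamoxifen changed the response to the siRNA was tested as the interaction, the difference between treated and untreated cells. No member probe set passed in limma, 1 had an unadjusted p under 0.05, and 0.28% of all probe sets passed. The 1 was MAVS 226495_at, at -0.12 in tamoxifen-treated cells and -0.48 in untreated cells (interaction 0.36, adjusted p = 0.254). For DHX58 the interaction was -0.13 (95% interval -0.82 to 0.57) and for IFIH1 1555464_at -0.57 (-1.81 to 0.67), and both intervals include 0.

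Tamoxifen for 2 h was then set against vehicle within each siRNA. No member passed in either. In SRC1-siRNA cells 1 probe set, EIF2AK2 242898_at, had an unadjusted p under 0.05, at -0.29 (limma, adjusted p = 0.288), and 1.51% of all probe sets passed. In control-siRNA cells TBK1 was the 1 probe set with an unadjusted p under 0.05, with 11.03, 11.13, 11.29 and 11.24 in tamoxifen-treated cells, against 10.98, 10.99, 11.02 and 11.01 in untreated cells (difference 0.17, adjusted p = 0.182), and 0.163% of all probe sets passed. DHX58 differed by -0.13 in SRC1-siRNA cells (95% interval -0.67 to 0.40) and by -0.01 in control-siRNA cells (-0.45 to 0.43).

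**Figure D4:**
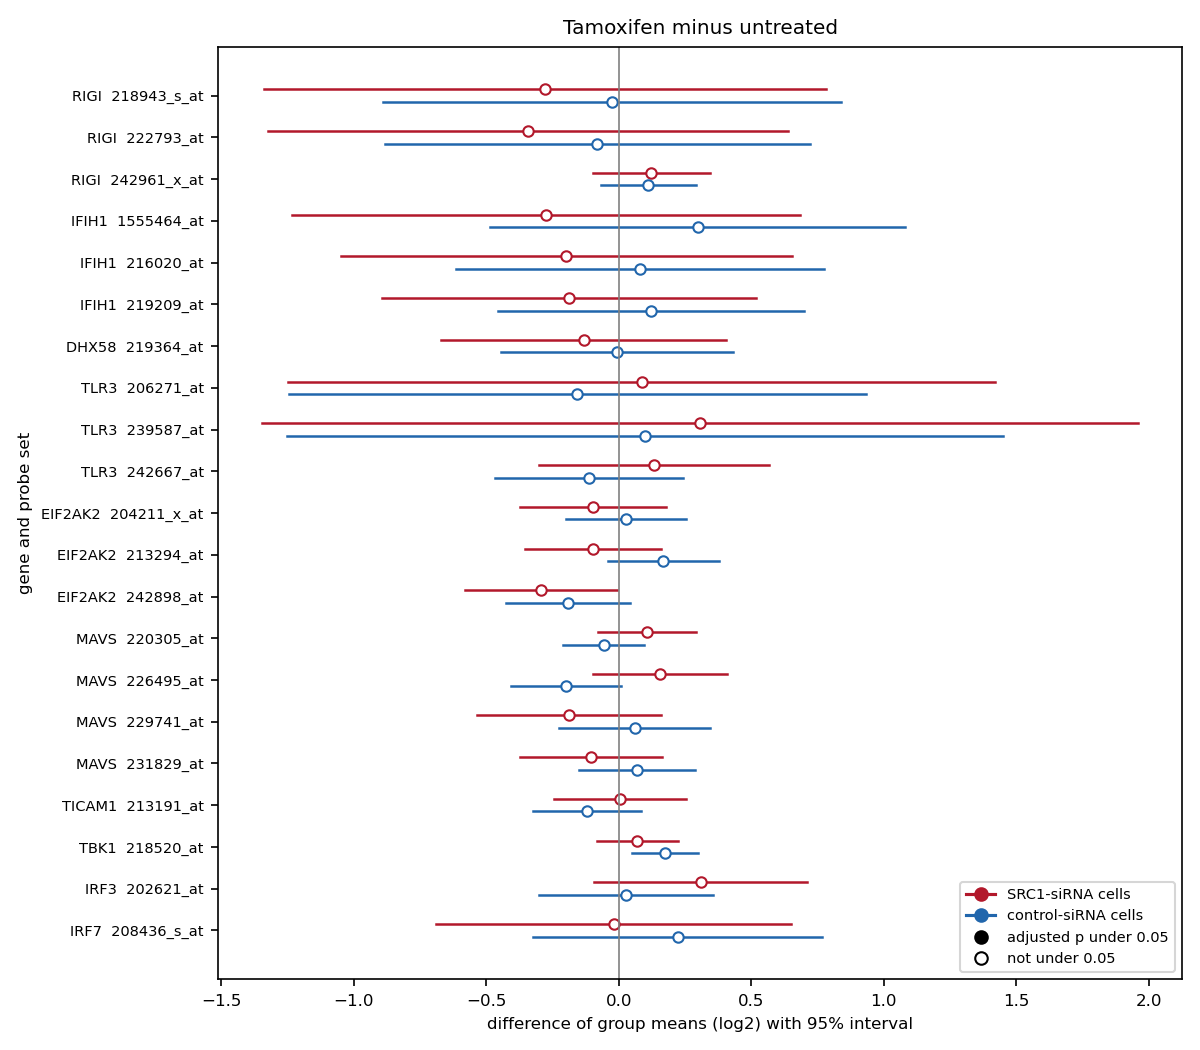
Difference between tamoxifen-treated and untreated cells in log2 signal for the 21 member probe sets, with the 95% interval of the limma fit, in SRC1-siRNA and in control-siRNA cells. No point had an adjusted p under 0.05, and within each siRNA the intervals of TLR3 206271_at and 239587_at were the widest of the 21.

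The wider pathway was read from lists of related genes, each gene by its brightest probe set, in the contrast of SRC1 siRNA and control siRNA; 5.97% of all genes rose and 5.98% fell in untreated cells by this measure, and 6.49% and 8.71% in tamoxifen-treated cells. Of 13 measured partners and regulators of the sensors 2 rose and 1 fell in untreated cells, with a list median of 0.02 against -0.00 over all genes. ZNFX1, a helicase that binds viral RNA, rose by 1.15 ± 0.18 (limma, adjusted p = 0.00210), and ZC3HAV1, an antiviral zinc finger protein, by 0.43 (adjusted p = 0.0304). PRKRA, which encodes the PKR activator PACT, fell by 0.26 (adjusted p = 0.0208). With the block only ZNFX1 of these 3 remained called (adjusted p 0.0127, against 0.102 for ZC3HAV1 and 0.0957 for PRKRA).

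Of 15 adaptors and kinases around TBK1 2 rose, with a list median of 0.06. TNFAIP3, the feedback inhibitor A20, rose by 1.48 ± 0.22 (limma, adjusted p = 0.00135) and the caspase gene CASP8 by 0.42 (adjusted p = 0.0272), and with the block only TNFAIP3 passed (0.00781, against 0.0924 for CASP8). Of 12 other sensors of nucleic acids 2 rose, with a median of 0.10: ZBP1, a sensor of Z-form nucleic acids, by 1.47 ± 0.24 (adjusted p = 0.00237), and AIM2, a sensor of cytosolic DNA, by 0.93 ± 0.18 (adjusted p = 0.00648), both also called with the block. Both are dim, at 4.63 and 3.24 with SRC1 siRNA against 3.16 and 2.31 with control siRNA. Of 14 genes of the PKR and OAS branches 3 rose, and 2 with the block, with a median of 0.16. OASL, an OAS-like protein that enhances RIG-I signalling, rose by 2.80 ± 0.59 (adjusted p = 0.00907). PPP1R15A, which encodes the phosphatase subunit GADD34, rose by 0.99 ± 0.17 (adjusted p = 0.00295). EIF2AK3, which encodes the endoplasmic reticulum kinase PERK, rose by 0.25 (adjusted p = 0.0425), a call that the block ended (0.148).

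Of the 6 other IRF genes measured 2 rose in untreated cells, with a median of 0.12. IRF1 rose by 1.17 ± 0.27 (limma, adjusted p = 0.0158, and 0.0515 with the block), and the dim IRF8 by 0.21 (adjusted p = 0.0371, and 0.141 with the block). In tamoxifen-treated cells IRF8 fell by 0.25 (adjusted p = 0.0395, and 0.176 with the block).

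In the list of interferon outputs 11 of its 14 measured genes rose in untreated cells, 6 of them with the block, with a median of 2.51. IFNB1 read 11.11, 9.13, 8.84 and 10.36 in SRC1-siRNA cells, against 4.66, 6.46, 7.08 and 5.32 in control-siRNA cells, without overlap, and rose by 3.98 ± 0.67 (limma, adjusted p = 0.00285). CCL5 rose by 4.78 ± 0.39, CXCL11 by 4.64 ± 0.60, ISG20 by 2.70 ± 0.40 and MX1 by 1.36 ± 0.15 (adjusted p 0.000146 to 0.00150). IFIT1 did not pass, at 1.61 ± 0.74 (adjusted p = 0.194). These genes were known to move when the members were chosen, so they are context and no independent support. In tamoxifen-treated cells 7 of the 14 rose, and 4 with the block; among the other lists 1 to 3 genes rose in each and PRKRA again fell, by 0.41 (adjusted p = 0.00597, and 0.0653 with the block). With the block, ZNFX1 and TNFAIP3 (adjusted p = 0.0298 for both) were the calls left in those other lists, and the other nucleic acid sensors, the PKR and OAS branches and the IRF genes had 0.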

How the data were processed

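LY2 cells were profiled on 14 HG-U133 Plus 2.0 arrays, from total RNA amplified with NuGEN Ovation and labelled with biotin, per the labels' protocols. The authors deposited 1 table of processed values with 54675 probe sets, on a scale that the values show to be log2. The base was inferred, with background correction and normalization not given in the sources used here. R 2.9.2 is named in the submitters' processing notes. The values were used as deposited, without detection calls; the number of arrays limits the precision. Control probe sets (62) were left out. Of the 54613 others, 41091 carry 1 gene symbol, 1801 several and 11721 none, and no gene was named from a probe set with several.

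Group means over all 14 arrays were fitted with limma 3.58.1 (lmFit and eBayes, R 4.3.3), with Benjamini-Hochberg adjustment over all 54613 probe sets, two-sided, threshold 0.05. Intervals and errors come from this fit. The steps were tested on simulated data with known changes. Of changes of 1.0 on the log2 scale, 98% were recovered in the untreated contrast of the siRNAs and 94% in the tamoxifen-treated one. The simulated arrays were independent, so this does not test the p-values where number means are alike. The correlations of same-numbered arrays, as deviations from their group means, were all below 0. Number means brought together upstream would also make them negative, so they cannot show whether the numbers pair the arrays. The number as a block is an alternative, and its values stand beside results because the number means were alike. Other alternatives were a robust eBayes with a trend, array weights, a fit restricted to the groups compared, quantile normalization, median centring, a filter on dim probe sets, and fits without each array or without all arrays of a number.

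The members and gene lists were chosen with earlier results of these data known, so counts over them are descriptions. The genes named are all members, NCOA1, IFNB1, IFIT1, CCL5, MX1 and part of the listed genes past the threshold in either siRNA comparison (up to 6 a list). Other listed genes had a probe set past it and were not described, among them DICER1, CYLD, IFI16 and IFIT2. In cultures measured in bulk, fewer responding cells and less RNA per cell cannot be told apart.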

Additional observations from a re-analysis of the deposited data

Results flagged for a closer look

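Of 93 groups of 4 arrays looked at, 6 were flagged for an array far from its nearest neighbour. In these 6 the distance took up 0.85 to 0.96 of the group's range. By the rule used, chance alone flags about 1 in 20 groups. Among the members, TLR3 239587_at was at 8.91 on SRC1-siRNA untreated array 1, where the nearest other array of the group was at 7.32. MAVS 229741_at was at 7.20 on the same array, below the nearest at 7.70. CCL5 204655_at was also highest there, at 12.3, with the nearest at 11.3. IFIT1 203153_at stood apart on 3 arrays of number 4: at 15.5 with SRC1 siRNA untreated (nearest 12.5), at 10.4 with control siRNA and tamoxifen (nearest 12.2) and at 9.76 with control siRNA untreated (nearest 12.0). Leaving out SRC1-siRNA untreated array 1 ended the call of MAVS 229741_at in untreated cells, while removal of any single array left that of CCL5 in place. TLR3 239587_at and IFIT1 did not pass in the main fit and had no call to lose. If an upstream step brought the number means together, the levels of arrays that share a number depend on each other. The 3 IFIT1 flags would then not be separate, and leaving out 1 array would not undo a shift in the others.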

How the results depend on the processing

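With the replicate block, 4 member probe sets were called in untreated cells in place of 9, and 1 in tamoxifen-treated cells in place of 6; over all probe sets the counts were 2154 in place of 5653 and 1224 in place of 7350. The 18 same-number correlations of deviations from group means ran from -0.58 to -0.04, with a median of -0.33. In tamoxifen-treated cells the count was 3 when only the arrays compared were fitted and 2 with array weights. Leaving out arrays gave 4 to 9 calls in untreated cells and 0 to 8 in tamoxifen-treated cells. The untreated count fell to 4 without array 1 of either siRNA, and to 5 without array 2 of either or array 4 of the control. The tamoxifen-treated count was 0 and 2 without SRC1-siRNA arrays 1 and 3, and 2 and 3 without control arrays 1 and 4. Both tamoxifen contrasts and the interaction gave 0 calls in every alternative. Of 1046 refitted differences between SRC1 siRNA and control siRNA in members, 903 kept their direction where called and their side of the threshold, 127 lost a call, 16 gained one and 0 changed sign while called; the cause was not tested. Detection on the array was not given, so what the dim probe sets (MAVS 231829_at, TLR3 242667_at) measure is limited by their signal.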

Other observations

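The genes whose level followed a member most closely, by the mean absolute difference in log2 signal over the 14 arrays after the mean of the untreated control arrays was subtracted, were looked up among 19765 other genes. For DHX58 they were LGALS3BP (0.17), TNFAIP3 (0.21) and HNF4G (0.21), with differences between SRC1 siRNA and control siRNA in untreated cells of 1.63, 1.48 and 1.29. For the brightest IFIH1 probe set they were USP18, the peptidase that removes ISG15, TAP2, a peptide transporter of antigen presentation, and PARP14, at 0.08, 0.10 and 0.11. IRF7 was followed by SAMHD1, a nucleotide hydrolase, SP100, a nuclear body protein, and TAP2, at 0.12, 0.13 and 0.14. TLR3 206271_at was followed by RASGRP3, BATF2 and GIMAP2, at 0.19, 0.20 and 0.25. The genes nearest to IFIH1 1555464_at were APOL3, IL15 and BTN3A3, at 0.26, 0.29 and 0.29, and those nearest to 216020_at were CARINH, ETV7 and PSMB8-AS1, at 0.15, 0.16 and 0.18. For the 2 MAVS probe sets that fell they were RILPL1, PDZD4 and FAM89B (0.07 to 0.08) and RPRML, UBE3D and RBBP9 (0.09 to 0.10). TBK1 was followed by USF1, HSPA5 and AMBRA1 (0.03 to 0.05). These neighbours were chosen for their likeness over the same arrays, so the likeness carries no test.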
